A study of Mus musculus with 10 samples.

Results

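Club cell secretory genes were described in lung RNA-seq of 10 mice. The genes were 9 symbols chosen by name, and the rows of the expression table that carry these symbols were taken as they stand and summed per symbol: Scgb1a1, Scgb3a1, Scgb3a2, Cyp2f2, Bpifa1, Bpifb1, Aldh1a1, Cbr2 and Reg3g. All 9 were found among the 24394 symbols of the table, in 12 transcript rows, with 2 rows each for Scgb3a1, Scgb3a2 and Bpifb1 and a single row for each of the other genes.

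Lung tissue of adult female BALB/c mice was sequenced in 3 groups. Saline mice (n = 3) were controls injected with saline. OVA mice (n = 3) were sensitized by injection of ovalbumin, an egg protein, with alum and were then challenged with ovalbumin through the nose, which provokes allergic airway inflammation resembling asthma. Herb mice (n = 4, called DSE in the study) were treated with ovalbumin in the same way and were also given an oral ethanol extract of Descurainia sophia seeds. All groups are of a single inbred strain, and the protocol is a short one that models an acute phase of the disease. The labels number the libraries as replicates and do not say whether each is a separate animal, so the p-values below measure the spread between these libraries, which are taken as mice.

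Club cells are the non-ciliated secretory cells of the small airways of the mouse. They release secretoglobins and antimicrobial proteins into the fluid that lines the airway, carry enzymes that break down inhaled chemicals, and act as progenitors that renew the airway epithelium. In allergic inflammation, cells of this lineage are known to take up mucus production as goblet cells. Scgb1a1 encodes the main secreted protein of club cells, Scgb3a1 and Scgb3a2 encode related secretoglobins, Bpifa1 and Bpifb1 encode secreted proteins of the BPI fold family that act in airway defence, and Reg3g encodes a secreted antimicrobial lectin. Cyp2f2, a cytochrome P450, Cbr2, a carbonyl reductase, and Aldh1a1, a retinaldehyde dehydrogenase, encode enzymes that are not secreted, and Aldh1a1 is also made by other cell types. Because lung tissue was sequenced and not sorted cells, fewer cells of a type and less RNA per cell cannot be told apart.

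Levels are given in FPKM, a count of fragments divided by the length of the transcript and by the mapped total of the library, so that genes can be compared per length. The depth estimated from the lowest values was 14870320 to 29548585 fragments per library. A property of the whole series bears on every value. The summed FPKM of all protein-coding transcripts was 139148 ± 7436 (SD, n = 3) in Saline, 48042 ± 7729 (n = 3) in OVA and 87326 ± 10211 (n = 4) in Herb, without overlap between the groups. The estimated share of fragments on messenger RNA, counted on named RefSeq protein-coding rows of known length, was 33.2%, 13.4% and 22.8% in the same order. Rows without a symbol, 31605 of 66548, are left out of this share, so any messenger RNA in them is not counted. The median log2 fold change of the 11205 symbols tested was not 0 but -0.75 in OVA vs. Saline, 0.48 in Herb vs. OVA and -0.27 in Herb vs. Saline, and after rescaling every library to a common 75th percentile of gene sums these medians were -0.02, 0.04 and 0.02. Rescaling to a common protein-coding sum gave medians of 0.36, -0.12 and 0.24, and quantile normalization gave 0.003, -0.005 and 0.005. A sign under the protein-coding sum is therefore to be read against its median. Changes of the members are given as deposited and, for those called and where the sign flips, after rescaling to the 75th percentile. Lung markers were present in all libraries, with the alveolar genes Sftpc at 210 to 3228 FPKM and Ager at 25.2 to 430 FPKM, while the 5 basal cell markers of the upper airway summed to at most 0.18 FPKM in any library.

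The stretches of 250 bases before the RefSeq start sites of the genes that were high and lowered in OVA (Cyp2f2, Cbr2) and of those that varied together between mice (Scgb3a1, Bpifa1, Bpifb1, Reg3g) are shown 5′ to 3′ on the strand of the gene. They were taken from RefSeq on GRCm38.p6, the assembly that mm10 represents, where windows of 7 of the 9 genes were matched by symbol. Scgb1a1 and Scgb3a2 are named only. Capitals mark matches on either strand to 7 short motifs of factors known from the airway, searched for FOXA as TGTTTAC and as the variants TGTTTGC and, with other letters, TATTTAC, for NKX2-1 as TCAAG, for C/EBP as TTNNGCAA, for STAT as TTCNNNGAA and for a TATA box as TATAAA.
Cyp2f2 (chr7:27119705-27119954, plus strand): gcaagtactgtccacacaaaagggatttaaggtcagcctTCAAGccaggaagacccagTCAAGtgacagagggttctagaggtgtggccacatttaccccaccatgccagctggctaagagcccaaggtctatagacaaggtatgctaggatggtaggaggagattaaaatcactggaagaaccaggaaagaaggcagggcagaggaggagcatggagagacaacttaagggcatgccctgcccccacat
Cbr2 (chr11:120732022-120732271, minus strand): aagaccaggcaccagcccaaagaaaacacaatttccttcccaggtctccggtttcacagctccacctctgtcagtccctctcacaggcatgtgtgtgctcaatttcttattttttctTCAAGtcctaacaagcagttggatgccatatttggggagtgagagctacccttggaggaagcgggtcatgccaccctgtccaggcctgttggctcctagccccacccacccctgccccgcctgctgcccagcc
Scgb3a1 (chr11:49663345-49663594, plus strand): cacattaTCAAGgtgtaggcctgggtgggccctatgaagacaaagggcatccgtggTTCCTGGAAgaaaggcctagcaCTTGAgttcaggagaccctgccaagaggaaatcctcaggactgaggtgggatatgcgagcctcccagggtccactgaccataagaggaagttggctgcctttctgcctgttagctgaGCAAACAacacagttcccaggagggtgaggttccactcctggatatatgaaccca
Bpifa1 (chr2:154142630-154142879, plus strand): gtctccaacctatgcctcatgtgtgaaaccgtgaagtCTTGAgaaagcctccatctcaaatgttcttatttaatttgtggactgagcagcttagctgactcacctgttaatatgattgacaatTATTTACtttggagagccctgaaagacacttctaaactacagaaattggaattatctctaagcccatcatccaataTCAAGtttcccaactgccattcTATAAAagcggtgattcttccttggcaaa
Bpifb1, first start site (chr2:154190568-154190817, plus strand): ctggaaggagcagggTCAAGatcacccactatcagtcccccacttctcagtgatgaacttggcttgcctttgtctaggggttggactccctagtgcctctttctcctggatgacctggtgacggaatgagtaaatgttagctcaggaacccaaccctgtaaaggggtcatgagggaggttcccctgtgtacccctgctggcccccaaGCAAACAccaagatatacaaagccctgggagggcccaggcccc
Bpifb1, second start site (chr2:154200130-154200379, plus strand): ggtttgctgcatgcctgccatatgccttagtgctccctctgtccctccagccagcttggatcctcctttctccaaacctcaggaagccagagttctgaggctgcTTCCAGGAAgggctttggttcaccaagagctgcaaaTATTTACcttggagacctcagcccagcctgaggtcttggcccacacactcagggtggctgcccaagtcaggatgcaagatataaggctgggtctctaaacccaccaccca
Reg3g (chr6:78468875-78469124, minus strand): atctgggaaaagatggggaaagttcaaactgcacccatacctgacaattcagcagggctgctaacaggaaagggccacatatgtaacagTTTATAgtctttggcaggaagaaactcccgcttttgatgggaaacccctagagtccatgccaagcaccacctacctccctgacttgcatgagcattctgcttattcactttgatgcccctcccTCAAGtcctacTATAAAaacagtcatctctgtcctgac
A FOXA match stood before the start sites of Scgb3a1, Bpifa1 and Bpifb1 (both start sites) and was not found in the windows of Cyp2f2, Cbr2 and Reg3g. Of 32851 promoter windows of this length, 3.17% held TGTTTAC, 4.3% held TGTTTGC and 2.73% held TATTTAC. The STAT letters were found before Scgb3a1 and the second start site of Bpifb1, and in 7.02% of all windows. The TATA letters began at position -29 from the start site in Bpifa1 and at -27 in Reg3g, and were found in 12.37% of all windows. The NKX2-1 letters are common, with 35.86% of all windows, and were found in every printed window except the second of Bpifb1. The C/EBP letters, held by 9.56% of all windows, were found in none of the printed ones. These are matches of letters, and no binding was measured.

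In OVA vs. Saline, Scgb1a1, Cyp2f2, Scgb3a2 and Cbr2 fell as deposited, and no member rose. The signs of Scgb3a2 and Cbr2 were positive under quantile normalization, at 0.03 and 0.45. That of Cbr2 was also positive under rescaling to the protein-coding sum, at 0.21, but below the median of 0.36 over all symbols. Scgb1a1 was lowered to 0.22 of its Saline level on the log2(FPKM + 1) scale, Cyp2f2 to 0.256, Scgb3a2 to 0.294 and Cbr2 to 0.397. Bpifb1 was at 1.73 to 97.6 FPKM in OVA and at 0.12 to 1.77 FPKM in Saline, the largest positive value among the members, and did not pass the test. All 9 members passed the filter of a mean of at least 1 FPKM. The 4 of 9 that fell compare with 57.9% of all symbols tested that fell as deposited, a share of members that was not above the background. After rescaling to the 75th percentile, Scgb1a1 and Cyp2f2 were still called lower, 2 of 9 members against 20.9% of all symbols. The share of all symbols that rose was 3.28% as deposited and 20.1% after rescaling. The median log2 fold change over the 9 members was -0.71 as deposited and -0.16 after rescaling.

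**Figure D1:**
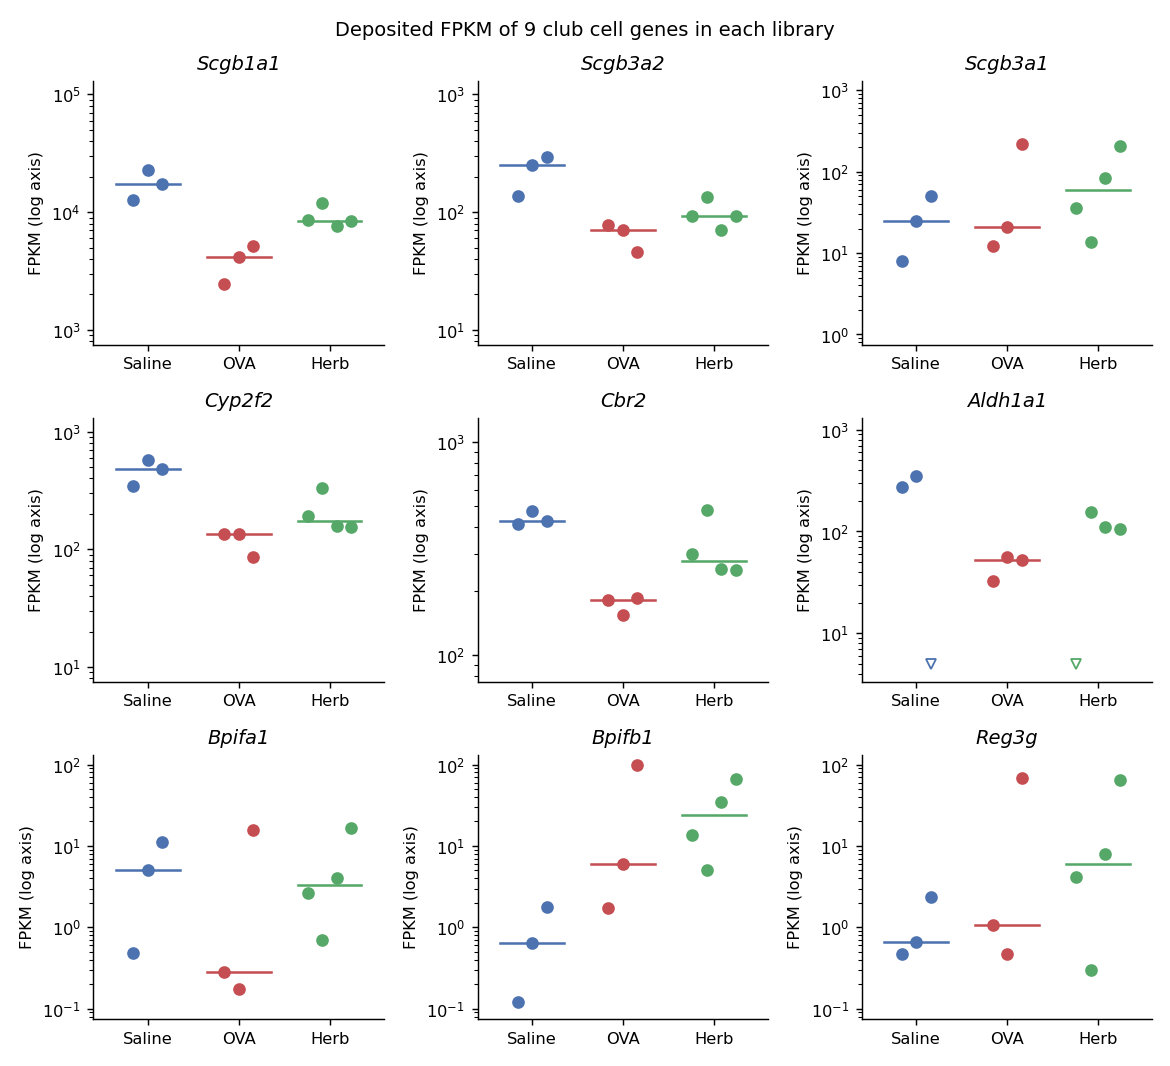
FPKM of each gene on a log axis (vertical) in the Saline, OVA and Herb libraries (horizontal), with 1 point per library and a line at the group median. Scgb1a1, Scgb3a2, Cyp2f2 and Cbr2 have their highest median in Saline and their lowest in OVA, Scgb3a1, Bpifa1, Bpifb1 and Reg3g spread widely within the groups, and open triangles mark the 2 libraries in which Aldh1a1 is listed at 0, where no median is drawn.

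Scgb1a1 was by far the most abundant member. Its FPKM was 12768, 22628 and 17217 in Saline mice 1 to 3, 2471, 4151 and 5164 in OVA mice 1 to 3 and 8531, 11897, 7705 and 8393 in Herb mice 1 to 4, an order kept for the other genes. The 3 groups did not overlap, with Saline highest and OVA lowest, and the means were 17538 ± 4937 (SD, n = 3), 3929 ± 1360 (n = 3) and 9132 ± 1879 (n = 4) FPKM. An estimated 34749 to 232680 fragments lay behind each of these values, so counting error is small beside the spread between mice. The log2 fold change was -2.18 ± 0.35 (SE) in OVA vs. Saline (limma, adjusted p = 0.000591) and 1.26 ± 0.32 in Herb vs. OVA (limma, adjusted p = 0.0144). It was -0.92 ± 0.32 in Herb vs. Saline (limma, adjusted p = 0.0638), so that neighbouring pair did not pass the test although the libraries did not overlap.

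After rescaling to the 75th percentile, the log2 fold change of Scgb1a1 was -1.15 ± 0.33 in OVA vs. Saline (limma, adjusted p = 0.0226), 0.61 ± 0.31 in Herb vs. OVA (adjusted p = 0.241) and -0.54 ± 0.31 in Herb vs. Saline (adjusted p = 0.26). The direction stayed the same under rescaling to the protein-coding sum, at -0.64, 0.39 and -0.24, where none of the 3 passed the test. Without the filter on low values the fold changes as deposited were the same and the calls were lost, with adjusted p of 0.791 in OVA vs. Saline and 0.892 in Herb vs. OVA in limma. Genes of a similar level give the background for these values. Among the other 64 symbols with a mean of at least 100 FPKM the median was -1.92 in OVA vs. Saline as deposited, with 27 of them below and 37 above Scgb1a1. In Herb vs. OVA the median of the same symbols was 1.3, with 28 below and 36 above Scgb1a1. Among symbols with a mean of at least 10 FPKM, those with a transcript under 700 bases, as Scgb1a1 with 476 bases, had a median of -2.10 in OVA vs. Saline, and those of at least 2000 bases had -1.53. What part transcript length, abundance and the lower messenger RNA share have in the fall of Scgb1a1 was not tested.

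As a share of all protein-coding FPKM, Scgb1a1 held 9.57%, 15.3% and 12.6% (Saline), 6.31%, 7.83% and 9.93% (OVA) and 9.43%, 12.1%, 10.4% and 9.75% (Herb). The ranges overlapped between all groups, with OVA lowest on average at 8.03% ± 1.82 (SD, n = 3), Saline at 12.5% ± 2.88 (n = 3) and Herb at 10.4% ± 1.18 (n = 4). The two-sided exact permutation test gave p = 0.2 for OVA vs. Saline, p = 0.171 for Herb vs. OVA and p = 0.286 for Herb vs. Saline, where the smallest p that the design allows is 0.1 for 3 against 3 libraries and 0.0571 for 3 against 4. Scgb1a1 ranked number 2 among all symbols in every Saline and Herb library and 3 or 4 in the OVA libraries. It made up 84.8% to 93.1% of the summed FPKM of the 9 members, so the sum follows this gene: 18916 ± 5196 FPKM (SD, n = 3) in Saline, 4482 ± 1514 (n = 3) in OVA and 9994 ± 2057 (n = 4) in Herb, again without overlap.

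**Figure D2:**
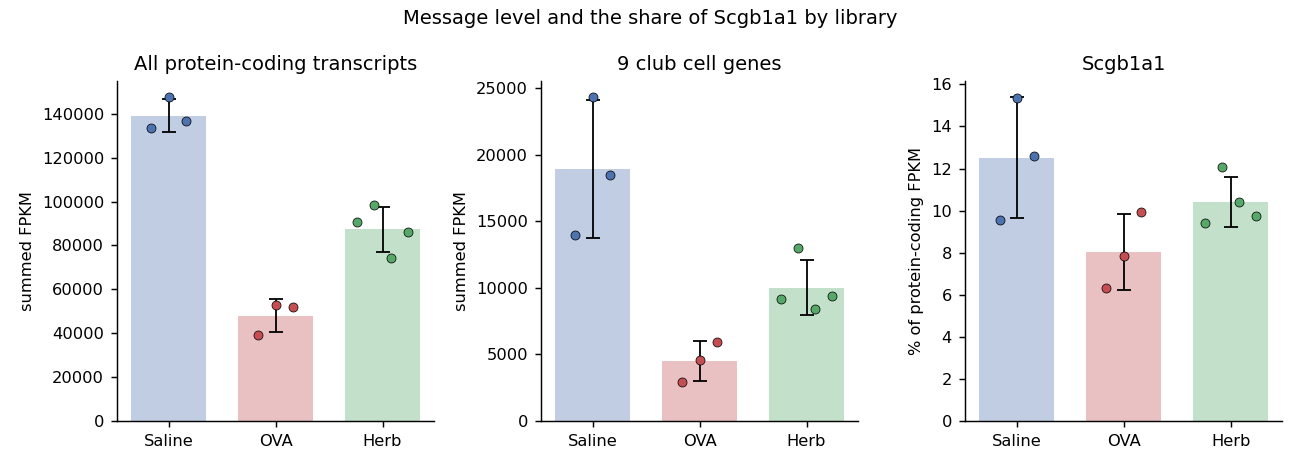
Summed FPKM of all protein-coding transcripts (left), summed FPKM of the 9 club cell genes (middle) and Scgb1a1 as a percentage of protein-coding FPKM (right) in the 3 groups, with bars for means, error bars for the SD and 1 point per library. The groups are apart in both sums and overlap in the share, which is 12.5%, 8.03% and 10.4% on average in Saline, OVA and Herb.

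Scgb3a2, a secretoglobin of the conducting airways, was measured at 137, 253 and 296 FPKM (Saline), 78.0, 70.0 and 46.1 FPKM (OVA) and 93.4, 134, 71.2 and 92.8 FPKM (Herb). Every Saline library lay above every OVA and Herb library, and OVA and Herb overlapped. The log2 fold change was -1.77 ± 0.35 (SE) in OVA vs. Saline (limma, adjusted p = 0.00188), 0.59 ± 0.32 in Herb vs. OVA (adjusted p = 0.167) and -1.18 ± 0.32 in Herb vs. Saline (adjusted p = 0.0298). Rescaled to the 75th percentile, the values were -0.75, -0.05 and -0.80 and none passed the test, with adjusted p of 0.111, 0.933 and 0.121 in limma, so the sign in Herb vs. OVA flipped with the scaling, and under quantile normalization that in OVA vs. Saline did too, at 0.03. The gene has 2 transcript rows of 578 and 550 bases, and the longer was at 0.83 and 0.11 FPKM in OVA 1 and OVA 3 and at 0.33 and 0.45 FPKM in Herb 2 and Herb 4, against 14.0 to 85.5 FPKM in the other libraries. Rows this alike share reads, so the split between them is uncertain and the sum was used.

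Cyp2f2, the club cell cytochrome that activates naphthalene, was measured at 345, 577 and 481 FPKM (Saline), 136, 135 and 85.9 FPKM (OVA) and 193, 334, 158 and 155 FPKM (Herb). None of the 3 groups overlapped, and the Herb libraries lay between the others. The log2 fold change was -1.96 ± 0.35 (SE) in OVA vs. Saline (limma, adjusted p = 0.00102), 0.77 ± 0.32 in Herb vs. OVA (adjusted p = 0.0797) and -1.20 ± 0.32 in Herb vs. Saline (adjusted p = 0.0282). After rescaling it was -0.94 ± 0.32 in OVA vs. Saline (limma, adjusted p = 0.045) and -0.82 in Herb vs. Saline (adjusted p = 0.0998). In Herb vs. OVA it was 0.12, and the sign flipped to -0.09 under rescaling to the protein-coding sum and to -0.11 under quantile normalization. The median over all symbols under the protein-coding sum was -0.12. Cyp2f2 lay in the middle of the 64 symbols with a mean of at least 100 FPKM in OVA vs. Saline, with 31 of them lower and 33 higher.

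Cbr2, a reductase of carbonyl compounds found in airway and alveolar epithelium, was measured at 415, 476 and 428 FPKM (Saline), 182, 155 and 185 FPKM (OVA) and 299, 481, 255 and 252 FPKM (Herb). OVA lay below both other groups without overlap, and Herb 2 was above the Saline libraries while the other Herb libraries were below them. The log2 fold change was -1.33 ± 0.26 (SE) in OVA vs. Saline (limma, adjusted p = 0.00178), 0.83 ± 0.24 in Herb vs. OVA (adjusted p = 0.0227) and -0.50 ± 0.24 in Herb vs. Saline (adjusted p = 0.154). Among the 64 abundant symbols 41 were lower and 23 higher in OVA vs. Saline. After rescaling the log2 fold change was -0.31 ± 0.23 (limma, adjusted p = 0.31). The sign flipped to 0.21 under rescaling to the protein-coding sum, which was below the median of 0.36 over all symbols, and to 0.45 under quantile normalization. In Herb vs. OVA it was 0.19 after rescaling (limma, adjusted p = 0.608). There the sign flipped to -0.03 under the protein-coding sum, which was above the median of -0.12, and to -0.27 under quantile normalization.

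Aldh1a1, which makes retinoic acid, was at 274 and 349 FPKM in 2 Saline libraries and listed at 0 in Saline 3, at 32.3, 55.9 and 53.0 FPKM in OVA, and at 155, 111 and 105 FPKM in 3 Herb libraries while listed at 0 in Herb 1. Where a value was given, Saline was above Herb and Herb above OVA. The housekeeping gene Gapdh, looked at after its values were seen, was listed at 0 in 9 of the 10 libraries, so an exact 0 in this table can be a failed estimate, and nothing is read from fold changes of Aldh1a1 over all libraries, which appear only among the alternatives. Without the 2 libraries at 0, an alternative added after seeing the data, its log2 fold change was -2.73 in OVA vs. Saline (limma, adjusted p = 0.00252) and 1.4 in Herb vs. OVA (adjusted p = 0.0442). It was not called in Herb vs. Saline, and this alternative was fitted as deposited only. In the same fit 5633 of 11205 symbols were lower in OVA vs. Saline and 2436 were higher in Herb vs. OVA.

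The other 4 members varied strongly between mice of one group. Scgb3a1, Bpifa1, Bpifb1 and Reg3g were each highest in Saline 3 among the Saline mice, in OVA 3 among the OVA mice and in Herb 4 among the Herb mice, and each was lowest in Saline 1 and in Herb 2. Within a group the highest library exceeded the lowest by 6.33 to 17.8 times for Scgb3a1, 13.1 to 56.2 times for Bpifb1, 23.5 to 89.9 times for Bpifa1 and 5.02 to 215 times for Reg3g, against 1.54 to 2.09 times for Scgb1a1. None of the 4 passed the test in any of the 3 comparisons as deposited or after rescaling to the 75th percentile.

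Bpifb1 was measured at 0.12, 0.64 and 1.77 FPKM (Saline), 1.73, 6.04 and 97.6 FPKM (OVA) and 13.7, 5.05, 35 and 66.0 FPKM (Herb). Every Herb library was above every Saline library, and OVA 1 was just below Saline 3. The log2 fold change was 2.85 ± 1.28 (SE) in OVA vs. Saline (limma, adjusted p = 0.0795), 0.80 ± 1.19 in Herb vs. OVA (adjusted p = 0.607) and 3.65 ± 1.19 in Herb vs. Saline (adjusted p = 0.0509). With the 75th percentile made equal, every OVA library was also above every Saline library, at 3.06 to 146 against 0.09 to 1.34 rescaled FPKM, and the log2 fold change was 3.51 (adjusted p = 0.0606). It passed under rescaling to the protein-coding sum, at 3.85 in OVA vs. Saline (limma, adjusted p = 0.0371) and 3.93 in Herb vs. Saline (adjusted p = 0.0493). About 3 fragments lay behind the value of Saline 1 and 23.1 and 60.9 behind those of the other Saline libraries, so the Saline level is known only roughly. With a Saline mean of 0.842 FPKM the gene passed the filter on low values through the OVA and Herb libraries, so nothing is read from calls of Bpifb1 here or below. Without OVA 1, Bpifb1 was also called in OVA vs. Saline as deposited.

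Scgb3a1, a secretoglobin of the larger airways, was measured at 7.99, 24.6 and 50.6 FPKM (Saline), 12.3, 21.0 and 220 FPKM (OVA) and 35.9, 13.8, 84.5 and 206 FPKM (Herb). All 3 groups overlapped, and the log2 fold change was 0.82 ± 1.23 (SE) in OVA vs. Saline, 0.47 ± 1.15 in Herb vs. OVA and 1.29 ± 1.15 in Herb vs. Saline (limma, adjusted p = 0.586, 0.761 and 0.43). The sign in Herb vs. OVA flipped to -0.15 after rescaling to the 75th percentile, and that in OVA vs. Saline to -0.41 without OVA 3.

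Reg3g was measured at 0.475, 0.659 and 2.39 FPKM (Saline), 1.07, 0.475 and 69.2 FPKM (OVA) and 4.11, 0.30, 7.91 and 64.3 FPKM (Herb). A single OVA and a single Herb library were high, and the rest of all groups lay at or below 7.91 FPKM. Its log2 fold change was 1.56 ± 1.63 (SE) in OVA vs. Saline and 1.96 ± 1.53 in Herb vs. Saline (limma, adjusted p = 0.43 and 0.363), and without OVA 3 the first of these was -0.21. Bpifa1 was measured at 0.482, 5.12 and 11.3 FPKM (Saline), 0.285, 0.176 and 15.8 FPKM (OVA) and 2.68, 0.697, 4.01 and 16.5 FPKM (Herb). Unlike Bpifb1, its neighbour on chromosome 2, it was as high in a Saline library as in most others. Its log2 fold change was -0.71 ± 1.22 in OVA vs. Saline and 0.01 ± 1.14 in Herb vs. Saline (limma, adjusted p = 0.635 and 0.997). The first was positive, at 0.13 and 0.07, under the protein-coding sum and quantile normalization, where the medians over all symbols were 0.36 and 0.003.

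Genes of goblet cells, the mucus-producing cells, were mostly high in the same mice. Itln1 was an exception among the Herb mice, at 6.61 FPKM in Herb 3 and 3.90 FPKM in Herb 4. The 10 goblet cell markers summed to 0.47 to 2.4 FPKM in Saline, 21.1 to 973 FPKM in OVA and 43.1 to 725 FPKM in Herb. Clca1, a secreted protein of goblet cells, was at 15.8, 46.3 and 788 FPKM in OVA and at 104, 34.5, 256 and 596 FPKM in Herb, and was listed at 0 in 2 Saline libraries and at 0.054 FPKM in the other. Fcgbp, a mucus protein, was at 1.81, 4.07 and 59.7 FPKM in OVA and at 5.21, 3.01, 10.3 and 41.4 FPKM in Herb. In both genes OVA 3 and Herb 4 stood highest and Herb 2 was the lowest of the Herb mice, as in the 4 variable members, whereas all Saline libraries were at or below 0.292 FPKM. All 8 goblet cell genes tested had a Saline mean under 1 FPKM and passed the filter only through OVA and Herb libraries, so nothing is read from the 3 called higher in OVA vs. Saline, or the 4 after rescaling. The part of goblet cells in the levels of the 4 members was not tested.

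**Figure D3:**
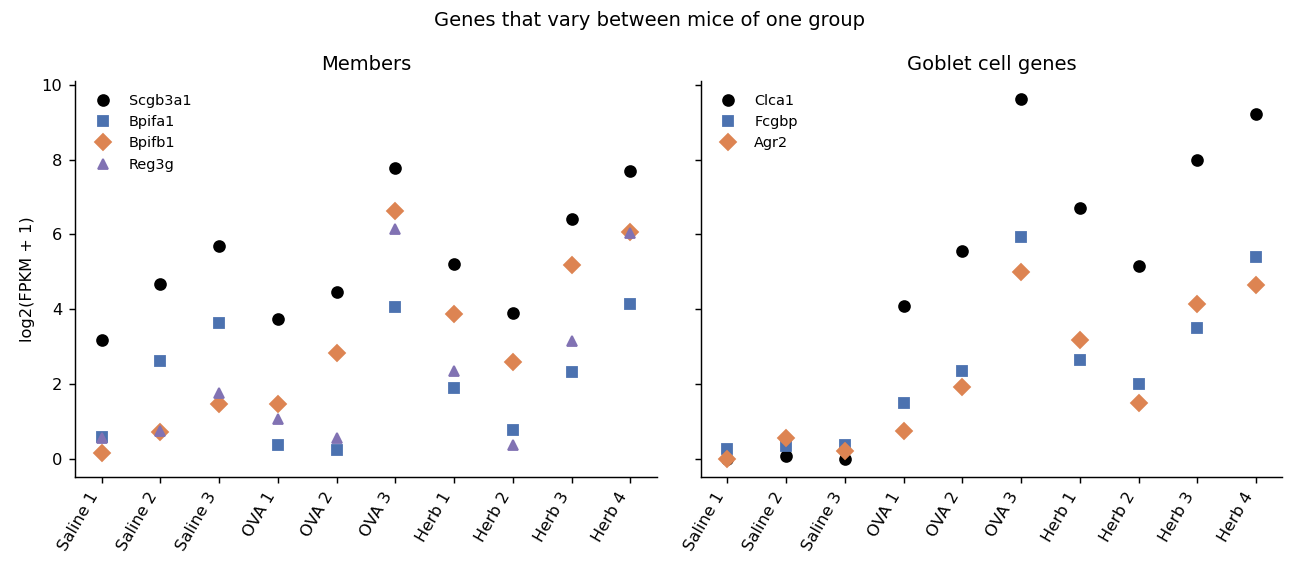
log2(FPKM + 1) (vertical) in each of the 10 libraries (horizontal) for Scgb3a1, Bpifa1, Bpifb1 and Reg3g (left) and for the goblet cell genes Clca1, Fcgbp and Agr2 (right). All 7 genes are highest in OVA 3 among the OVA libraries and in Herb 4 among the Herb libraries, and the Saline libraries lie at or near 0 in the 3 goblet cell genes.

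The ratio of a member to Scgb1a1 within a library does not change when the library is multiplied by a factor, as in both rescalings, although quantile normalization changes it. Scgb1a1 stood above Cyp2f2 by 5.22 ± 0.07 on the log2 scale in Saline (SD, n = 3), 5.01 ± 0.87 in OVA (n = 3) and 5.50 ± 0.26 in Herb (n = 4), and the groups overlapped in this ratio and in that to Scgb3a2. The ratio to Cbr2 was 5.28 ± 0.32 in Saline and 4.44 ± 0.58 in OVA without overlap (two-sided exact permutation test, p = 0.1, the smallest possible). The log2 ratio of Bpifb1 to Scgb1a1 was -15.0 ± 1.73 in Saline, and the OVA and Herb means were -8.54 ± 2.50 and -8.81 ± 1.85, with no overlap between Saline and either group (exact permutation p = 0.1 and 0.0571, the smallest possible). About 3.02, 23.1 and 60.9 fragments of Bpifb1 lay behind the Saline ratios, which are known only roughly, so nothing is read from these p-values. Scgb3a1 to Scgb1a1 was -9.63 ± 1.13 in Saline and -6.61 ± 1.78 in OVA without overlap (exact permutation p = 0.1), and overlapped between Saline and Herb. Over the 30 tests of 10 ratios the lowest adjusted p was 0.343.

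**Figure D4:**
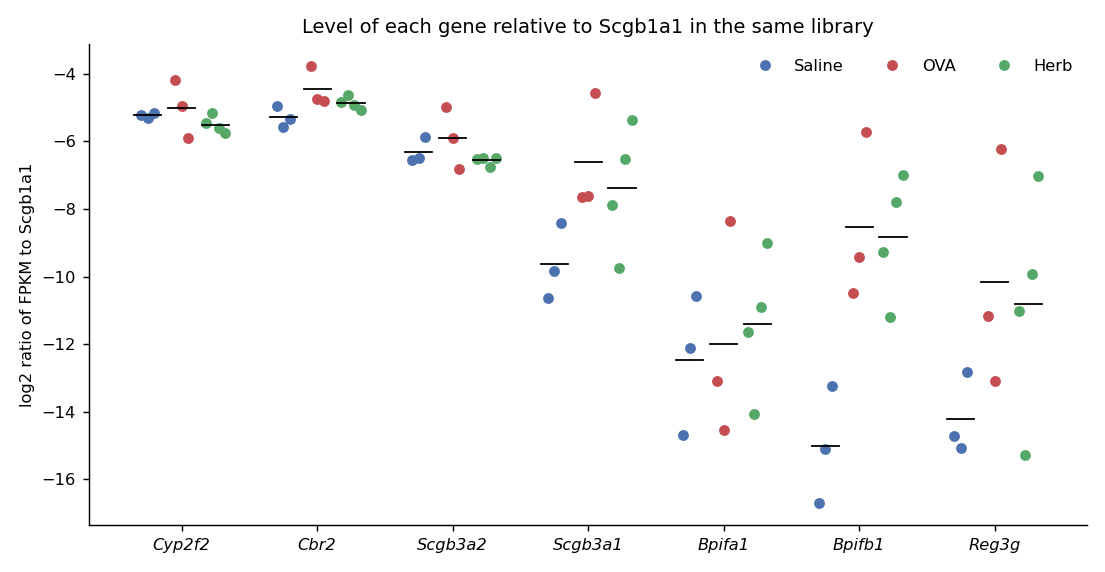
log2 ratio of the FPKM of each of 7 members to that of Scgb1a1 in the same library (vertical), by gene (horizontal) and group, with 1 point per library and a line at the group mean. Cyp2f2, Cbr2 and Scgb3a2 lie 3.76 to 6.81 below Scgb1a1 in all libraries, while Bpifb1 is between -16.7 and -13.3 in Saline and at -11.2 or above in every OVA and Herb library. The Saline values of Bpifb1 rest on few fragments.

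Set against Sftpc, a surfactant gene of alveolar type 2 cells, Scgb1a1 was higher in OVA than in Saline, and set against Tppp3, a gene of ciliated cells, it was lower. The log2 ratio of Scgb1a1 to Sftpc was 2.58 ± 0.52 (SD, n = 3) in Saline, 3.68 ± 0.82 (n = 3) in OVA and 3.36 ± 0.38 (n = 4) in Herb, and Saline and OVA did not overlap (two-sided exact permutation test, p = 0.1). Against Tppp3 the ratio was 8.21 ± 0.52 in Saline and 7.24 ± 0.25 in OVA without overlap (exact permutation p = 0.1), and 7.96 ± 0.12 in Herb, above all OVA libraries (exact permutation p = 0.0571). Against Ager, a gene of alveolar type 1 cells, the groups overlapped. The result against Sftpc depends on the marker chosen. As deposited in OVA vs. Saline, Sftpc at -3.27, Lamp3 at -3.25, Napsa at -2.46 and Sftpb at -2.45 fell more than Scgb1a1 at -2.18. The other type 2 markers fell less, with Sftpa1 at -2.17, Cxcl15 at -1.88, Lpcat1 at -1.76, Sftpd at -1.42, Slc34a2 at -0.88 and Abca3 at -0.0004.

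In Herb vs. OVA, Scgb1a1 and Cbr2 rose, to 2.40 and 1.78 times the OVA level on the log2(FPKM + 1) scale, and no member fell. Under quantile normalization Cbr2 had the opposite sign, at -0.27. Under rescaling to the protein-coding sum it was at -0.03, above the median of -0.12 over all symbols. These 2 of 9 members compare with 44.0% of all symbols tested that rose as deposited. After rescaling to the 75th percentile none of the 9 passed limma's test, where 0.348% of all symbols rose, and none had an unadjusted p under 0.05. In Herb vs. Saline, Cyp2f2 and Scgb3a2 were lower, at 0.436 and 0.442 of the Saline level, 2 of 9 members against 22.7% of all symbols that were lower, and after rescaling none was called in limma, against 6.71%, while 3 (Cyp2f2, Scgb3a2 and Bpifb1) had an unadjusted p under 0.05. Both comparisons share the Herb libraries, and each shares a group with OVA vs. Saline, so they are not independent of one another. The calls also rested on single mice: without OVA 1 neither member was called in Herb vs. OVA, and without OVA 2 only Scgb1a1 was. Without any of Saline 2, Saline 3, Herb 1, Herb 3 or Herb 4 none was called in Herb vs. Saline. There 4 were called without OVA 1 and 4 without Herb 2, each time with Bpifb1, higher in Herb, among them. Calls over all symbols moved as well, from 3225 to 5069 in Herb vs. OVA and from 897 to 3224 in Herb vs. Saline.

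**Figure D5:**
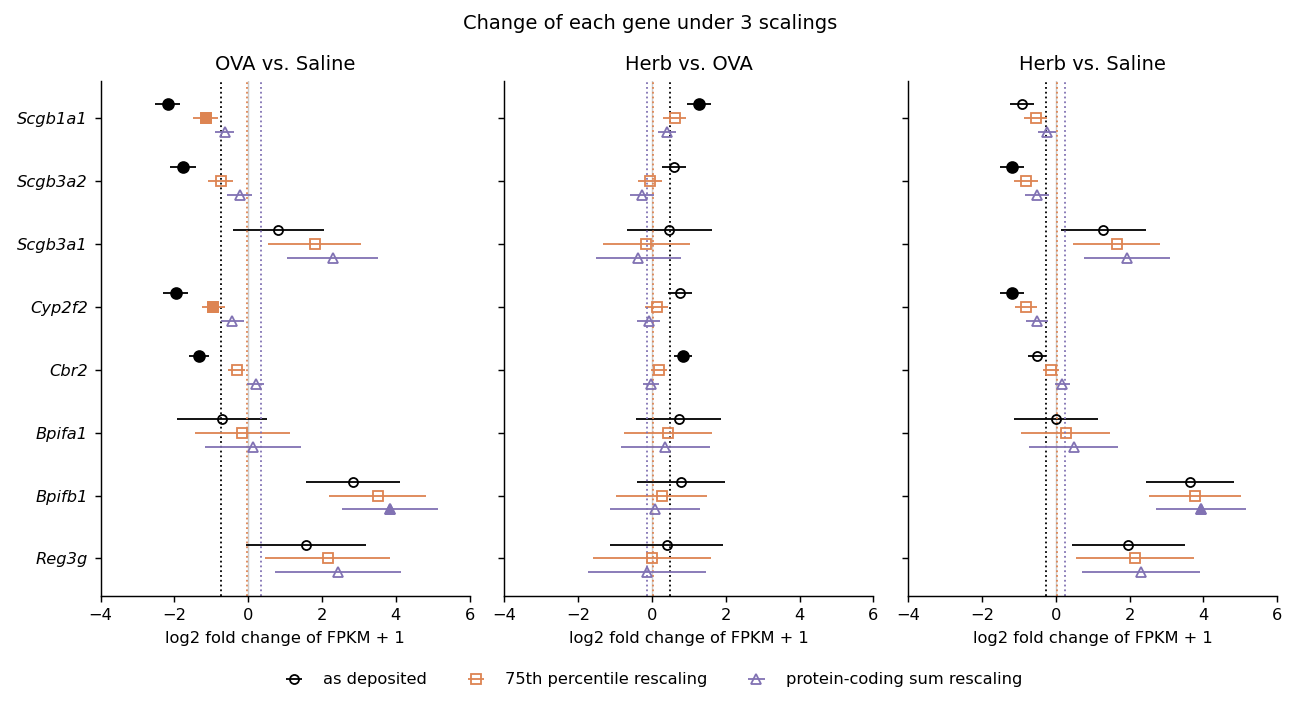
log2 fold change of FPKM + 1 (horizontal) of 8 members (vertical) in the 3 comparisons, with error bars of 1 SE, as deposited, after rescaling to the 75th percentile and after rescaling to the protein-coding sum. Filled symbols have an adjusted p under 0.05, dotted lines are the medians of all 11205 symbols under each scaling, and Aldh1a1 is left out because it is listed at 0 in 2 libraries. As deposited, Scgb1a1 at -2.18, Cyp2f2 at -1.96, Scgb3a2 at -1.77 and Cbr2 at -1.33 are filled in OVA vs. Saline and move towards 0 when the libraries are rescaled. Cbr2 crosses to 0.21 under the protein-coding sum, where the median of all symbols is 0.36.

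Other genes known from club cells were examined as a list of 31, of which 27 could be tested and 1 was at 0 in all libraries. In OVA vs. Saline 14 fell and 2 rose, with a median log2 fold change of -1.14 against -0.75 over all symbols, and after rescaling 10 fell and 3 rose with a median of -0.17. Of all symbols, 57.9% fell and 3.28% rose as deposited, and 20.9% and 20.1% did after rescaling. The share of the 27 that fell as deposited was not above that background. After rescaling the share that fell was larger than that of all symbols, a difference that was not tested. Cyp2b10, a cytochrome P450, ranged over 30.3 to 47.1 FPKM in Saline, was at 2.49 and 3.34 FPKM in OVA 1 and OVA 2 and was listed at 0 in OVA 3. Fmo1, a flavin monooxygenase, ranged over 67.2 to 82.0 FPKM in the Saline libraries, while OVA 1 had 12.1 FPKM, OVA 2 had 10.3 FPKM and OVA 3 was likewise listed at 0. Both are among the 14, but since an exact 0 can be a failed estimate, no fold change is given for either. Pigr, the receptor that carries antibodies across the epithelium, rose: it was at 4.79 to 11.6 FPKM in Saline, 13.9 to 57.7 FPKM in OVA and 27.5 to 55.8 FPKM in Herb, with 1.68 in OVA vs. Saline and 2.22 in Herb vs. Saline (limma, adjusted p = 0.0169 and 0.0138). Aox3, an aldehyde oxidase, rose by 0.80 as deposited and 1.53 after rescaling in OVA vs. Saline (adjusted p = 0.0254 and 0.00414).

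In Herb vs. OVA, 44.0% of all symbols tested rose as deposited and 0.348% after rescaling. Of the 27, 6 rose, a smaller share, and none fell, with a median of 0.66 against 0.48 over all symbols, and after rescaling none passed. Fmo2, another flavin monooxygenase, was among them and went from 7.48 to 25.6 FPKM in OVA to 31.6 to 81.5 FPKM in Herb. In Herb vs. Saline 10 were lower and 1 higher, and 6 and 2 after rescaling. Of all symbols, 22.7% were lower as deposited and 6.71% after rescaling, and 372 and 850 of the 11205 were higher. The share of the 27 that was lower was larger under both, which was not tested either. Cyp4b1, a cytochrome P450 of club and other lung cells, was at 164 to 234 FPKM in Saline and at 20.7 to 62.8 FPKM in Herb, with a log2 fold change of -2.33 as deposited and -1.95 after rescaling (limma, adjusted p = 0.013 and 0.0312).

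The next list held 20 transcription factors and Notch pathway genes that govern airway secretory cells. In OVA vs. Saline 13 of them fell and 1 rose, against 57.9% and 3.28% of all symbols. Their median was -0.75 against -0.75 over all symbols. After rescaling 1 fell and 4 rose, against 20.9% and 20.1% of all symbols, so the share that rose was at the background. Hey1, a target of Notch signalling, was at 9.54 to 12.7 FPKM in Saline, at 1.35 to 2.54 FPKM in OVA and at 3.19 to 7.68 FPKM in Herb, and its fall held after rescaling, at -2.05 and -1.25 (limma, adjusted p = 0.000253 and 0.00651). Jag2, a Notch ligand, rose under both, from 1.87 to 2.63 FPKM in Saline to 4.02 to 5.50 FPKM in OVA, by 0.74 and 1.54 (adjusted p = 0.00353 and 0.00118). Elf3, an epithelial transcription factor, was called only after rescaling, at 1.35 in OVA vs. Saline (adjusted p = 0.0149).

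Among the markers of neighbouring cells, 2 of 11 tested ciliated cell genes fell in OVA vs. Saline as deposited and none after rescaling, while Foxj1, the master regulator of ciliated cells, was called higher under both, from 2.72 to 6.66 FPKM in Saline to 7.94 to 21.4 FPKM in OVA. Of alveolar markers, 8 of 10 type 2 cell genes and 7 of 7 type 1 cell genes tested were lower in OVA vs. Saline, and 6 of 10 and 6 of 7 after rescaling. Their summed levels moved with Scgb1a1, from 3605 to 4688 FPKM in Saline to 559 to 901 FPKM in OVA and 1237 to 2182 FPKM in Herb for type 2 cells, and from 782 to 917 to 61.4 to 184 and 203 to 435 FPKM for type 1 cells. Of 10 tested genes shared by epithelia, 7 fell and none rose, and 2 fell after rescaling, with Krt7, a keratin, at 40.5 to 53.7 FPKM in Saline and 4.29 to 7.77 FPKM in OVA. Of 5 basal cell markers none reached the level to be tested. The background for each of these lists in OVA vs. Saline is 57.9% of all symbols lower as deposited and 20.9% after rescaling.

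Genes of the upper airway and its glands were looked at because Bpifa1 and Reg3g are also made there. Of this list of 10, 3 were at 0 in all libraries and 4 could be tested. The list summed to 281 to 288 FPKM in Saline, 80.3 to 125.5 FPKM in OVA and 147 to 224 FPKM in Herb. Nearly all of the Saline sum came from Lyz1, at 114 to 122 FPKM, and Sec14l3, at 161 to 172 FPKM. The sum therefore does not give the level of the other genes of the list. Ltf, lactoferrin, was the one called higher in OVA vs. Saline, at 0.19, 0.59 and 1.00 FPKM in Saline, 1.80, 3.37 and 19.7 FPKM in OVA and 7.83, 4.30, 10.1 and 26.3 FPKM in Herb, with a log2 fold change of 2.02 as deposited and 2.65 after rescaling (limma, adjusted p = 0.043 and 0.0263). With a Saline mean of 0.594 FPKM it passed the filter only through OVA and Herb libraries, so nothing is read from its call. Like the variable members it was highest in Saline 3, OVA 3 and Herb 4. Lyz1, a lysozyme, and Sec14l3 of the same list fell in OVA vs. Saline as deposited, with log2 fold changes of -3.15 and -1.30 (limma, adjusted p = 0.0007 and 0.000199), and after rescaling Lyz1 alone passed. The part of upper airway tissue in the 4 members was not tested.

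Of 24 paralogues of the members, 23 were in the table, 12 were listed at 0 in all libraries and 6 could be tested. Scgb1c1, a secretoglobin related to Scgb1a1, was at 5.11 to 9.08 FPKM in Saline, 0.733 to 1.27 FPKM in OVA and 1.60 to 3.05 FPKM in Herb, and was called lower in OVA vs. Saline and in Herb vs. Saline under both scalings. Its log2 fold change in OVA vs. Saline was -1.97 as deposited and -1.31 after rescaling (limma, adjusted p = 0.000171 and 0.00207).

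The genes most like 3 of the members were sought over the 10 libraries among 1538 symbols with a mean of at least 10 FPKM, as Pearson correlations of log2(FPKM + 1) after rescaling, which are descriptions over libraries that fall into 3 groups and share their depth and messenger RNA share. Closest to Scgb1a1 were 2010107E04Rik, Ndufa4, Usmg5, Scarna10 and Prdx1, with r from 0.96 to 0.98, none of them from the lists examined here. The other members correlated with Scgb1a1 at 0.63 for Cyp2f2, 0.53 for Cbr2, 0.51 for Scgb3a2, 0.30 for Bpifa1, -0.15 for Scgb3a1, -0.18 for Reg3g and -0.34 for Bpifb1, and at -0.02 for Aldh1a1 with its 2 values of 0. Closest to Bpifb1 were Gfpt1, which starts the pathway to the sugars of mucins, Fcgbp, Chil4, Clca1 and Gsto1, with r from 0.94 to 0.98. Closest to Reg3g were Gsto1, Lypd2, Scgb3a1, Fcgbp and Bpifb1, with r from 0.90 to 0.95. Gsto1 and Lypd2 are from the list of other club cell genes, and Gsto1, a glutathione transferase, was at 5.23, 11.9 and 80.2 FPKM in OVA and at 24.6, 14.6, 27.1 and 66.4 FPKM in Herb. Bpifb1 correlated at 0.91 with Scgb3a1, 0.90 with Reg3g and 0.64 with Bpifa1, and at -0.87 with Cyp2f2, -0.74 with Scgb3a2 and -0.50 with Cbr2.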

How the data were processed

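RNA-seq libraries of whole lung were made from 10 mice. By the study's methods, the authors trimmed the reads, mapped them to mm10 with HISAT2 and quantified expression with the ballgown package. The submitters' processing notes name cutadapt 1.10, HISAT2 and StringTie 1.3.3b, without saying what each was used for. The authors deposited 1 table of FPKM per transcript. The notes also name edgeR 3.16.5, which is not used here because the values are not counts. Rows of a symbol were summed, and limma 3.58.1 in R 4.3.3 (lmFit, eBayes with a trend) was applied to log2(FPKM + 1) of the 11205 symbols with a mean of at least 1 FPKM, in 1 fit of 3 group means, with Benjamini-Hochberg adjustment over all symbols. A call is an adjusted p under 0.05. A fold change on this scale understates that of low genes. Shares, sums and ratios, with 1 value a library, were tested by exact permutation (two-sided, scipy 1.17.1). Depth was estimated from the steps between values under 0.1 FPKM in genes with a single row. Alternatives were 3 other scalings, a pseudocount of 0.1, other filters, transcript rows, 2 groups in the fit, the replicate block and leaving out each mouse. The procedure was tested on simulated data. The members and lists were chosen with earlier results of these data known. Of each list, up to 2 genes per direction and comparison with the largest called changes could be named, with the scaling given, of which the text gives some, and for 3 members the 5 symbols with the highest correlation.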

Additional observations from a re-analysis of the deposited data

Results flagged for a closer look

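Reg3g in Herb 4, at 64.3 FPKM, stood apart from the other 3 Herb libraries, which were at 0.30 to 7.91 FPKM. The gap to the nearest library took 0.881 of the range of the group, above the critical value of Dixon's test for 4 samples. Of the 9 members this was the only 1 flagged in the Herb group. The test was applied to FPKM and not to logs, and its rate of about 1 in 20 groups by chance supposes normal values. As the Herb values of Reg3g spread over 215 times, that rate need not hold, and nothing is read from the flag. Groups of 3 were not examined in this way.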

How the results depend on the processing

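The direction of Scgb1a1 and Cyp2f2 in OVA vs. Saline held under all 22 alternatives, from -2.41 to -0.64 and from -2.17 to -0.18. Bpifb1 was at 1.35 to 3.94, but it passed the filter through the OVA and Herb libraries, so nothing is read from its stable sign. The call of Scgb1a1 was lost in 2 of them, under the protein-coding sum (limma, adjusted p = 0.0727) and, with the fold change the same, without a filter on low values (adjusted p = 0.791, and 0.892 in Herb vs. OVA). Of all changes of a member under an alternative, 474 kept direction and side of the threshold, 16 gained and 50 lost the call and 54 had the opposite sign. The causes were not tested.

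The number of members called in OVA vs. Saline, 4, was 2 under 75th percentile rescaling and 1 (Scgb1a1) under quantile normalization. It was 1 under the protein-coding sum, which was Bpifb1, higher in OVA, and none of the 4. Of the 11205 symbols, 1917 were lower under quantile normalization. Under the protein-coding sum 987 were lower and 4242 higher, so the call of Bpifb1 is not above the background. Quantile normalization gives Scgb1a1 the same value in every Saline and Herb library, where it ranks number 2. Its calls under this scaling rest on the step to rank 3 or 4 in OVA, so nothing is read from them. They are counted above among the alternatives that kept the call. In Herb vs. OVA, 2 were called as deposited, against 0 under 75th percentile rescaling, 1 (Scgb1a1) under quantile normalization and 0 under the protein-coding sum. There were 0 without a filter on low values, 1 with 2 groups in the fit and 0 to 2 without single mice. Of all symbols, 4932 rose as deposited, 39 under 75th percentile rescaling, 56 under quantile normalization and 66 under the protein-coding sum. Without a filter 4375 of 20819 rose, and with 2 groups in the fit 4194 of 11205 did. Without single mice 3225 to 5069 were called. In Herb vs. Saline, 2 were called as deposited, against 0 under 75th percentile rescaling, 0 under quantile normalization and 0 without a filter. Under the protein-coding sum 1 was called (Bpifb1, higher, and neither of the 2). With a mean of at least 5 FPKM 4 were called (Scgb1a1 and Bpifb1 besides the 2). There was 1 (Cyp2f2) with transcript rows, and 0 to 4 without single mice. Of all symbols, 2549 were lower as deposited and 752 under 75th percentile rescaling. Under the protein-coding sum 319 were lower and 2087 higher. With a mean of at least 5 FPKM 1637 of 3955 were lower and 79 higher. With transcript rows 1928 of 10864 were lower, and without single mice 897 to 3224 were called. Chosen after seeing the data, leaving out both libraries in which Aldh1a1 is listed at 0 gave 1 (Aldh1a1) in Herb vs. OVA and 0 in Herb vs. Saline. Of all symbols, 2462 and 65 were called there. Leaving out OVA 3 and Herb 4 gave 1 (Bpifb1) in Herb vs. Saline, where 1484 of all symbols were called, 206 of them higher.

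The replicate numbers of the labels did not pair the libraries, since the correlation of deviations between libraries of the same number was -0.009 to 0.095. With the replicate block, in which Herb 4 has no partner and no weight, 5 members were called in OVA vs. Saline (the 4 and Bpifb1). In Herb vs. OVA 2 were called and in Herb vs. Saline 0. With the block and 75th percentile rescaling the counts were 2 (Scgb1a1 and Bpifb1), 0 and 0. Of the 11205 symbols, 6603, 4040 and 1342 were called with the block, and 4305, 2 and 556 with the block and rescaling. Opposite signs under the block were -0.16 for Scgb3a1 and -0.62 for Reg3g in Herb vs. OVA and -0.61 for Bpifa1 in Herb vs. Saline, and under the block with rescaling -0.80 for Scgb3a1, -0.058 for Scgb3a2, -0.19 for Bpifa1, -0.30 for Bpifb1 and -1.02 for Reg3g in Herb vs. OVA and -0.35 for Bpifa1 in Herb vs. Saline.

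Other opposite signs in Herb vs. OVA were -0.15 for Scgb3a1 and -0.055 for Scgb3a2 under 75th percentile rescaling, -0.57 for Scgb3a1, -0.39 for Scgb3a2, -0.11 for Cyp2f2, -0.27 for Cbr2 and -0.097 for Reg3g under quantile normalization, and -0.37 for Scgb3a1, -0.27 for Scgb3a2, -0.094 for Cyp2f2, -0.031 for Cbr2 and -0.14 for Reg3g under the protein-coding sum. In OVA vs. Saline they were 0.027 for Scgb3a2, 0.067 for Bpifa1 and 0.45 for Cbr2 under quantile normalization and 0.13 for Bpifa1 and 0.21 for Cbr2 under the protein-coding sum. In Herb vs. Saline they were 0.29 for Aldh1a1 and 0.18 for Cbr2 under quantile normalization and 0.17 and 0.18 under the protein-coding sum. The medians over all symbols under the protein-coding sum were 0.36 in OVA vs. Saline, -0.12 in Herb vs. OVA and 0.24 in Herb vs. Saline. An opposite sign there is therefore not by itself a reversal relative to the other symbols. Without single mice, values that changed sign ranged from -0.41 to 1.61 for Scgb3a1 and -0.21 to 2.58 for Reg3g in OVA vs. Saline, from -0.33 to 1.70 for Scgb3a1, -0.29 to 2.29 for Bpifb1 and -0.62 to 2.17 for Reg3g in Herb vs. OVA, and from -0.84 to 0.68 for Bpifa1 in Herb vs. Saline, where it was 0.81 without Saline 3 and Herb 1. Aldh1a1, with its 2 values of 0, ranged without single mice from -2.73 to 1.5 in OVA vs. Saline, from -1.03 to 1.4 in Herb vs. OVA and from -3.07 to 1.42 in Herb vs. Saline, and over all alternatives it reached 1.64 in the first and -1.47 in the second. Without OVA 3 and Herb 4 the values were -0.41 for Scgb3a1, -0.21 for Reg3g and -0.075 for Aldh1a1 in OVA vs. Saline and -0.61 for Bpifa1 in Herb vs. Saline, and without Saline 3 and Herb 1 those of Aldh1a1 were -2.73 in OVA vs. Saline and 1.4 in Herb vs. OVA.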
